A study of Mus musculus with 20 samples.

Results

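The change that CD8 and CD4 T cells had in common between short and long culture was measured over all 20 libraries of the study, as the effect of stage (long-term against week 1) in a model that also holds cell type, across 13290 genes. Long-term means week 4 for CD8 and week 3 for CD4 cells, so the later stage is not the same age in both. With an adjusted p under 0.05, 5657 of the 13290 genes differed between the stages. Of these, 1465 differed in the same direction in CD8 and in CD4 cells when each cell type was tested on its own libraries' means, and these genes are described here.

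The cells were mouse T cells out of the spleen and inguinal lymph nodes, enriched for CD4 or CD8 and activated on plates coated with antibodies to CD3 and CD28 in 1 ng/mL IL-2. Polyclonal cells from albino B6 mice were activated for 72 h, and T cells carrying a transgenic receptor, from Marilyn-BLITC and MataHari-BLITC mice, for 24 h. The labels do not say which library came from which mice. All cultures then grew with IL-7 at 10 ng/mL and IL-15 at 50 ng/mL, for 4 days (CD8 week 1 and CD4 week 1), 18 days (CD4 week 3) or 25 days (CD8 week 4), with 5 libraries in each of the 4 groups. Every library, early or late, came from cells sorted as CD44+CD62L+ to a purity above 97%, the surface phenotype of central memory T cells. RNA with a poly(A) tail was sequenced, and the values are counts of reads per gene. Whether the 5 libraries of a group are from different animals or cultures is not stated in the labels. The p-values therefore measure only the spread between these samples, and that spread may be technical.

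A T cell that has been activated through its receptor divides many times, and copies its DNA and builds membranes, proteins and nucleotides for it. Once the signal ends, cells kept alive by IL-7 and IL-15 slow their cycle and approach the resting state of memory cells. Genes of DNA replication are largely controlled by E2F factors, and genes of mitosis by complexes that bind CHR elements together with CCAAT boxes. Signals through the receptor also switch on inhibitory receptors such as PD-1 and transcription factors such as TOX and the NR4A family, which last in exhausted cells under chronic stimulation.

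Library totals ran from 13.3 to 28.3 M counts. The T cell genes Cd3d, Cd3e, Cd3g, Cd247, Trac, Trbc1, Trbc2, Thy1 and Cd5 summed to 3500 to 4850 CPM (counts scaled to a common library size, here the plain library total) in every library, CD8 genes were at most 30.7 CPM in CD4 libraries, and all 7 neutrophil markers together were at most 0.228 CPM. The B cell list summed to 73.9 to 652 CPM, nearly all of it Ighm. In CD4 cells the lists of 2 other lymphocyte types were higher late: the NK cell list summed to 8.51 to 34.6 CPM at week 1 and 46.9 to 93.7 CPM at week 3, and the gamma delta T cell list to 8.91 to 38.8 and 45 to 88.4 CPM. Most of the CD4 week 3 sum was a single gene in each list, Cd7 (37.1 to 89.4 CPM) and Tcrg-C1 (37.4 to 69.1 CPM). Ncr1 and Tyrobp of the NK cell list were each at most 0.178 CPM there. In CD8 cells these lists overlapped between the stages, at 173 to 424 and 285 to 333 CPM and at 56.8 to 79.9 and 61.4 to 118 CPM. Their part in the results was not tested. Principal components were taken over the 1000 genes of highest variance, of which PC1 (63.8%) separated the cell types and PC2 (16.1%) the stages. On PC2, CD8 week 1 replicate 3 lay at -6.16, while the rest of its group spanned -22.2 to -20.2. CD4 week 3 replicate 2 lay at -5.55, while the rest of its group spanned 14.7 to 29.8. These libraries stood apart from their groups on the stage axis, and results are given with and without them below. Title numbers of the CD8 libraries form 2 ranges, here called A (replicates 1, 2 and 3) and B (the remaining 2), and each range is present at both weeks. CD4 titles form a range of their own, so title range and cell type cannot be told apart.

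The stage effect was spread over a large share of the genes and was mostly modest in size. In the additive model, 2906 genes were higher (21.9%) and 2751 lower (20.7%) in long-term culture (adjusted p under 0.05 by edgeR's quasi-likelihood test with Benjamini-Hochberg adjustment), and 429 and 743 of these by at least 2-fold. CD8 cells alone had 2268 genes higher (17.1%) and 2186 lower (16.4%), and CD4 cells 1020 higher (7.67%) and 1169 lower (8.80%). Both cell types called 668 genes higher (5.03%) and 797 lower (6.00%), and these 2 contrasts have no library in common. Of the genes called higher in CD4 cells, 65.49% were also called higher in CD8 cells, whereas 29.45% of the CD8 rises were called in CD4 cells. For the falls the shares were 68.18% and 36.46%. Only 19 genes (0.143%) were called in opposite directions.

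The shared rises had median log2 fold changes of 0.68 in CD8 and 0.59 in CD4 cells, and the shared falls -0.89 and -0.77, while the median of all genes was 0.03 and 0.01. A change of at least 2-fold in each cell type was reached by 143 of the 668 rises and 299 of the 797 falls. For 182 of the rises and 155 of the falls, no long-term library overlapped a week 1 library in either cell type. Over all genes tested, 378 (2.84%) were separated in this way, 208 (1.57%) upward and 170 (1.28%) downward. Across all 13290 genes, the 2 sets of log2 fold changes had a Pearson r of 0.632 and a Spearman correlation of 0.660, and 76.82% of genes had the same sign. These values describe genes, which are not independent replicates. Within title ranges A and B of the CD8 libraries, all 668 and 667 of the shared rises kept their sign, and so did all 797 shared falls in each. The genes had been called on these same libraries, so the signs largely follow from that choice and are no separate support.

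**Figure D1:**
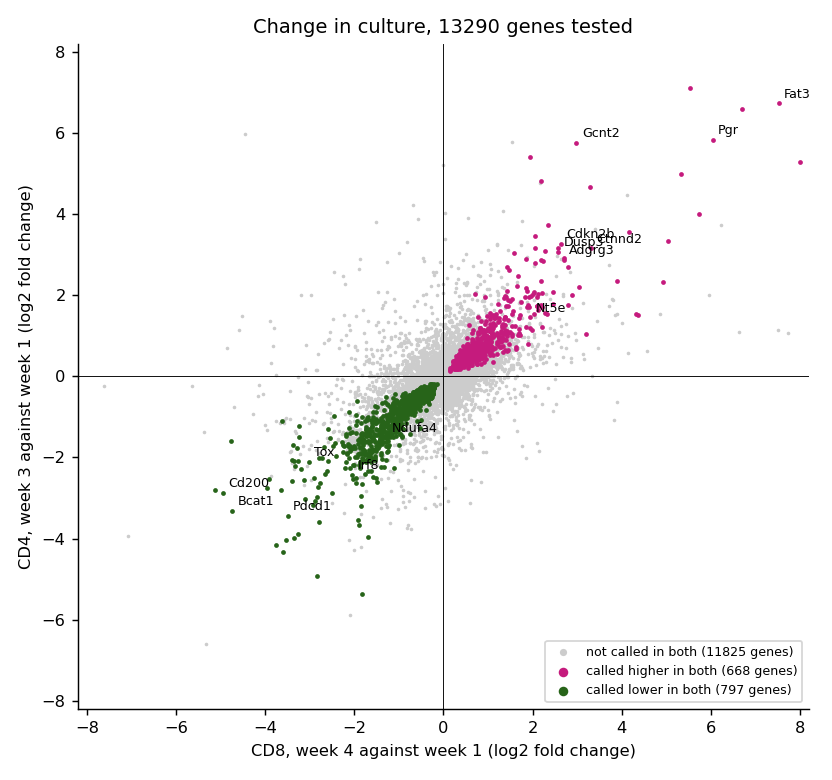
Log2 fold change of each of the 13290 genes tested in CD8 cells (week 4 against week 1, x axis) and in CD4 cells (week 3 against week 1, y axis). Magenta points are the 668 genes called higher in both cell types, green points the 797 called lower in both and grey points the rest (changes beyond 8 are drawn at 8), and genes named in the text are labelled at the upper right or lower left, where both changes are large.

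How many genes counted as shared depended on single libraries more than the additive counts did. Without CD8 week 1 replicate 3 and CD4 week 3 replicate 2, 1342 genes were called higher and 1547 lower in both cell types, and 96.5% of the 1465 were among them. Leaving out CD4 week 3 replicate 2 alone gave 1047 and 1364. Without CD4 week 3 replicate 3 the counts were 398 and 373, and without CD4 week 3 replicate 4 they were 398 and 379. The additive counts ranged from 2602 to 3228 higher and from 2522 to 3160 lower over the 20 libraries left out in turn.

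Among the 14 largest shared rises taken by a fixed rule (both cell types called, no overlap between the stages and at least 10 CPM), the genes encode signalling enzymes, surface receptors, an RNA and a few proteins better known from other tissues. Dusp3 (ENSMUSG00000003518, GRCm38 chr11:101971143-101987013), a dual-specificity phosphatase that acts on MAP kinases, had one of the 2 smallest adjusted p values. In CD8 cells it stood at 4.98, 6.08, 4.104, 4.84 and 3.84 CPM in the week 1 libraries and at 24.4, 26.5, 30.96, 33.3 and 27.9 CPM at week 4. In CD4 cells the values were 2.61, 2.59, 2.899, 4.07 and 3.21 CPM at week 1 and 13.2, 42.5, 27.2, 16.5 and 30.8 CPM at week 3. Every long-term library lay above every week 1 library of its cell type, and all 10 week 1 libraries held under 7 CPM. For the 14 rises and the 14 falls below, the lack of overlap follows from the rule and is no separate support. The additive change was 7.10-fold (log2 fold change 2.83, SE 0.19, adjusted p 1.45e-08).

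Adgrg3, which encodes an adhesion G protein-coupled receptor, rose 6.92-fold (2.79, SE 0.24, adjusted p 5.81e-07). Its CD8 libraries held 3.16, 3.099, 10.9, 5.198 and 3.99 CPM at week 1 and 30.2, 35.3, 29.4, 33.9 and 42.6 CPM at week 4. The CD4 libraries held 1.99, 3.15, 3.399, 5.89 and 2.79 CPM at week 1 and 21.9, 44.5, 23.2, 17.9 and 19.8 CPM at week 3. The stages were apart in both cell types, with the highest week 1 value in CD8 replicate 3 and the highest CD4 week 3 value in replicate 2. Nt5e encodes CD73, an ecto-enzyme that turns extracellular AMP into adenosine. In CD8 cells it went from 41.7, 50.0, 93.5, 73.8 and 66.8 CPM to 169, 137, 399, 308 and 246 CPM. CD4 cells had 81.7, 50.7, 129.6, 169.6 and 49.2 CPM at week 1 and 264, 259, 306, 270 and 229 CPM at week 3. The week 1 values varied more than 2-fold within each cell type, yet none reached the long-term values of its own cell type (additive log2 fold change 1.71, adjusted p 4.23e-05).

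Gab3, a docking protein downstream of cytokine and growth factor receptors, stood at 18.8, 20.9, 17.9, 17.04 and 16.3 CPM at week 1 and 43.3, 44.5, 40.8, 44.4 and 44.2 CPM at week 4 in CD8 cells. The CD4 libraries had 17.5, 12.6, 15.8, 21.2 and 11.9 CPM and 40.1, 26.7, 49.04, 49.6 and 39.1 CPM. The 5 CD8 week 4 libraries spanned only 40.8 to 44.6 CPM, and the additive log2 fold change was 1.31 (SE 0.11, adjusted p 3.54e-07). Neat1, the long noncoding RNA that scaffolds nuclear paraspeckles, rose too (1.27, adjusted p 4.60e-06). Its levels in CD8 cells were 236, 278, 163, 289.8 and 239 CPM at week 1 and 704, 628, 553, 571 and 567 CPM at week 4. In CD4 cells they were 403, 313, 287, 345 and 270.1 and 599, 427, 977, 1006 and 724 CPM. The lowest long-term value, in CD4 week 3 replicate 2, was close above the highest CD4 week 1 value.

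Of the remaining large rises, Ctnnd2, which encodes delta-catenin and is best known from neurons, had the largest fold change (log2 3.23, adjusted p 1.10e-05). Its CD4 week 1 libraries ranged from 0.917 to 9.07 CPM and its CD4 week 3 libraries from 17.6 to 58.6 CPM. Hpgds, the haematopoietic prostaglandin D synthase, rose by 2.54, the transmembrane protein gene Plxdc2 by 2.35, and Gcm2, a transcription factor of the parathyroid gland, by 2.07 on the log2 scale. The netrin receptor gene Unc5a (1.56), the Src family kinase gene Yes1 (1.42), the core fucosyltransferase gene Fut8 (1.31) and the anion transporter gene Slc26a11 (1.27) completed the list with Padi2, a peptidyl arginine deiminase (1.37). Padi2 rose in both cell types, but by more in CD4 (2.04) than in CD8 cells (0.72), and this difference passed the interaction test (adjusted p 0.0265). The interaction of the other 13 did not pass, which does not show that their changes were equal.

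**Figure D2:**
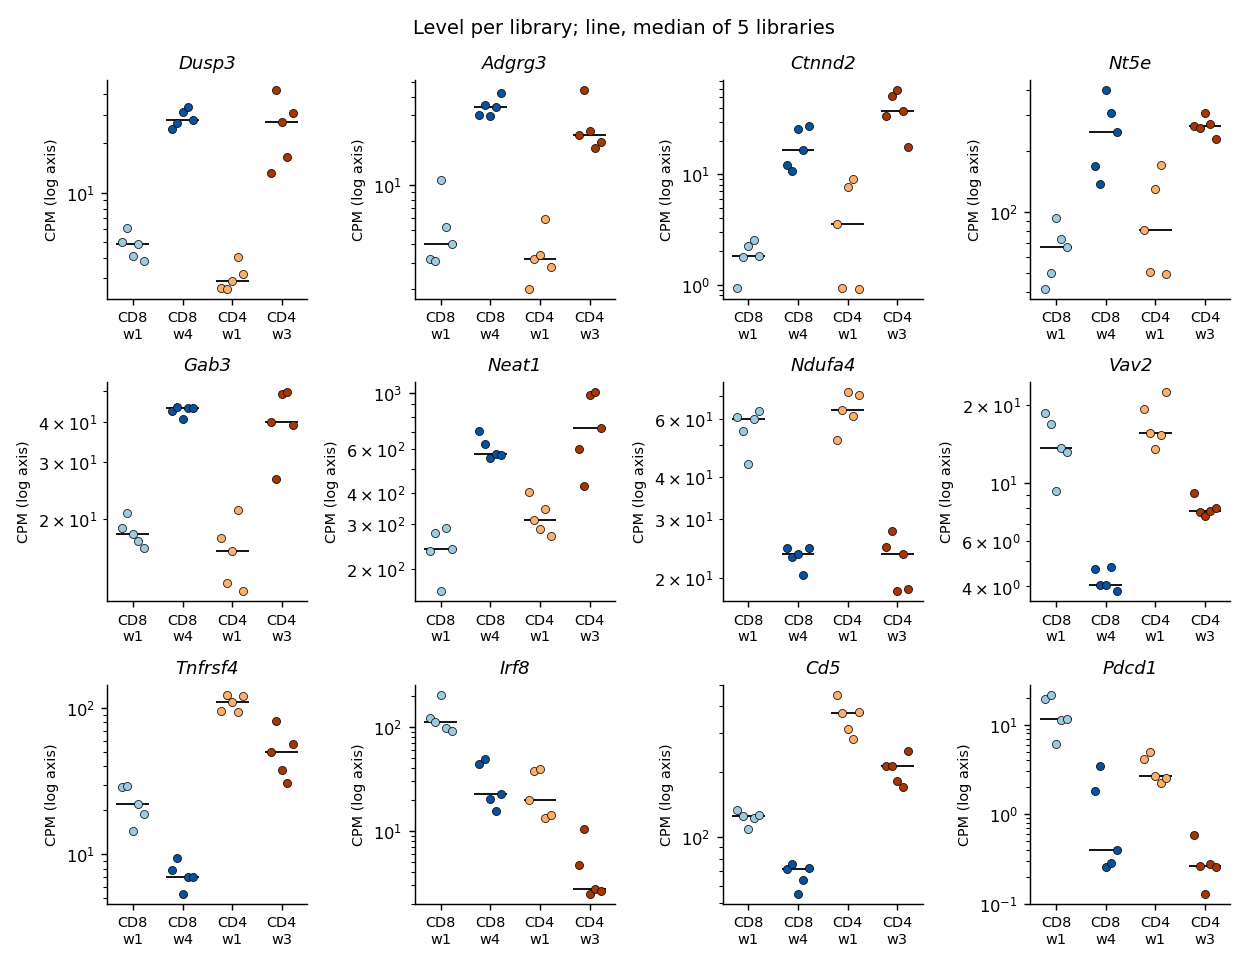
Levels in CPM on a log axis of 12 shared genes, each point 1 library and each line the median of the 5 libraries of CD8 week 1 and 4 and CD4 week 1 and 3. The first 6 genes, from Dusp3 to Neat1, are higher in all long-term libraries than in any week 1 library of the same cell type, and the last 6, from Ndufa4 to Pdcd1, are lower.

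The 14 largest shared falls by the same rule held regulators of activation and a respiratory subunit. Ndufa4 (ENSMUSG00000029632, chr6:11900292-11907497), a small subunit assigned to cytochrome c oxidase (complex IV), shared the smallest adjusted p with Dusp3. CD8 libraries went from 60.5, 55.1, 43.7, 59.97 and 63.2 CPM at week 1 to 24.6, 23.1, 23.6, 20.4 and 24.6 CPM at week 4. CD4 libraries went from 51.95, 63.9, 71.99, 60.9 and 70.4 CPM to 24.8, 27.7, 18.2, 23.6 and 18.5 CPM. All 10 long-term libraries lay under 28 CPM and all 10 week 1 libraries above 43 CPM, a change of 2.62-fold (log2 -1.39, SE 0.09, adjusted p 1.45e-08). Left-out libraries moved the log2 fold change only from -1.43 to -1.35. The gene AA467197 encodes a paralog that can take the place of Ndufa4 in complex IV, and was looked up after the values of Ndufa4 were seen. It was higher in long-term libraries in the additive test (1.18, adjusted p 0.0126), but was called in neither cell type alone (adjusted p 0.0564 in CD8 and 0.167 in CD4 cells). Its levels overlapped between the stages, at 19.01 to 103 and 57.3 to 174 CPM in CD8 and 9.08 to 85.6 and 45.9 to 120 CPM in CD4 libraries at week 1 and late.

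Irf8 encodes a transcription factor of the interferon regulatory family that activated T cells switch on, and had the largest fall of the 14 (4.71-fold lower, log2 -2.23, SE 0.31, adjusted p 3.95e-05). In CD8 cells it stood at 122, 113, 206, 99.2 and 91.8 CPM at week 1 and 44.5, 48.9, 20.2, 15.6 and 22.7 CPM at week 4. CD4 cells held 20.04, 37.4, 39.3, 13.4 and 14.1 CPM at week 1 and 4.69, 10.5, 2.48, 2.73 and 2.62 CPM at week 3. The fall was present at both of the unequal starting levels, and the lowest CD8 week 1 library was above the highest CD8 week 4 library. Vav2, a guanine nucleotide exchange factor that acts downstream of the T cell receptor, fell by 1.42 on the log2 scale (adjusted p 1.40e-06). It had 18.7, 16.98, 9.38, 13.7 and 13.2 CPM in CD8 week 1 and 4.68, 4.05, 4.04, 4.75 and 3.83 CPM in CD8 week 4 libraries. The CD4 values were 19.4, 15.7, 13.6, 15.3 and 22.5 CPM and 9.202, 7.74, 7.496, 7.84 and 8.03 CPM. Late CD8 libraries were close together near 4 CPM and late CD4 libraries near 8 CPM.

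Tnfrsf4, which encodes the costimulatory receptor OX40 induced by activation, fell by 1.35 on the log2 scale (adjusted p 2.03e-05). CD8 libraries held 28.7, 29.1, 14.5, 21.99 and 18.8 CPM at week 1 and 7.79, 9.46, 5.38, 7.04 and 6.96 CPM at week 4. CD4 libraries started higher, at 94.8, 124, 110.5, 93.7 and 121 CPM, and ended at 49.9, 80.99, 37.6, 30.9 and 56.6 CPM. The late CD4 level thus remained above the early CD8 level. The other large falls were Izumo1r (-2.05), which encodes folate receptor 4 of regulatory and activated CD4 cells, the kinesin light chain gene Klc3 (-1.99), the aldehyde dehydrogenase gene Aldh2 (-1.82), the chromatin protein gene Hmgb3 (-1.72) and the cullin regulator gene Cand2 (-1.67). The semaphorin receptor gene Plxnd1 (-1.60), Nmral1 (-1.57), the EGR corepressor gene Nab2 (-1.53), Serinc5 (-1.52) and Utp14b (-1.38), a factor of ribosome assembly, were the rest. Their adjusted p values lay between 2.77e-06 (Cand2) and 0.000198 (Izumo1r).

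The genes whose changes were most alike in size, among 32 with the same separation and at least 2-fold in each cell type, were Nmral1 (-1.56 in CD8 and -1.57 in CD4 cells, log2), Utp14b (-1.39 and -1.36), Fut8 (1.33 and 1.30), Yes1 (1.45 and 1.39), Slamf1 (-1.26 and -1.17) and Slc26a11 (1.32 and 1.22). Slamf1 encodes a self-binding receptor of activated lymphocytes. Since they were picked for their likeness, it is a description.

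Genes of S phase and DNA replication fell as a block in both cell types. All 44 tested members of the list fell in the additive test, against 20.7% of all genes, and 38 fell in each cell type, against 6.00%. The median log2 fold change was -1.35 (additive), -1.24 in CD8 and -1.36 in CD4 cells. Without CD8 week 1 replicate 3 and CD4 week 3 replicate 2, all 44 fell in both, and 26 to 44 did over the libraries left out in turn. Summed over the list, CD8 libraries held 8144, 7118, 3383, 7397 and 7577 CPM at week 1 and 2987, 2976, 3587, 2249 and 2401 CPM at week 4. The CD4 sums were 2650, 4184, 5771, 3989 and 6449 CPM at week 1 and 1780, 3783, 1251, 1145 and 1168 CPM at week 3. CD8 week 1 replicate 3 sat among the week 4 libraries and CD4 week 3 replicate 2 among the week 1 libraries, so the sums overlapped in both cell types. In bulk samples, fewer dividing cells and less RNA of these genes per cell cannot be told apart.

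Pole2, a subunit of the leading-strand DNA polymerase epsilon, shows the pattern at the level of a single gene (chr12:69201779-69228190, log2 fold change -1.07, SE 0.14, adjusted p 2.75e-05). It stood at 35.99, 33.4, 24.6, 41.2 and 36.1 CPM in CD8 week 1 and 12.5, 13.5, 26.6, 15.6 and 16.9 CPM in CD8 week 4 libraries, and at 42.3, 34.9, 55.5, 39.8 and 46.8 CPM in CD4 week 1 and 16.8, 29.6, 18.6, 17.2 and 17.5 CPM in CD4 week 3 libraries. The CD4 stages did not overlap, and in CD8 cells week 1 replicate 3 lay below week 4 replicate 3. Orc6 of the origin recognition complex (-1.08), Dut, which removes dUTP (-1.29), and Gins3 of the replicative helicase (-0.90) fell by similar amounts (adjusted p 3.48e-05, 9.31e-05 and 8.99e-05). Their calls in both cell types remained with each single library left out.

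Promoters of 2 replication genes are shown, chosen because they hold an E2F word, the element such genes are known for. The windows of Orc6, Rfc5 and Dut held none. Promoter windows of 300 bases (250 before to 50 after the RefSeq start site, GRCm38.p6) were found for 9568 of the 13290 genes. The words TTTCCCGC or TTTGGCGC, on either strand, occurred in 12 of 37 S phase promoters (32.4%), in 6 of 29 DNA repair promoters (20.7%) and in 3.3% of all promoters. They stood in 9.02% of the 621 windows of genes lower in both cell types and 2.54% of the 473 windows of genes higher in both. Below are the windows of Pole2 (chr12:69228141-69228440, minus strand) and Gins3 (chr8:95633309-95633608, plus strand), in lower case with the E2F word in capitals. Both matches are on the opposite strand, so they read as the reverse complement, starting 10 bases after the start site in Pole2 and 41 bases before it in Gins3. A match is a description of these letters and not of binding.
Pole2: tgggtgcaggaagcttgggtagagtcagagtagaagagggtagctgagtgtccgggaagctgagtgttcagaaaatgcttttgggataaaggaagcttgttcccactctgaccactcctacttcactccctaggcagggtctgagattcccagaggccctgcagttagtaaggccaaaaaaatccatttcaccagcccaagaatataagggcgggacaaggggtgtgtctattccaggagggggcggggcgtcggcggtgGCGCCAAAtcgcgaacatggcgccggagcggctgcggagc
Gins3: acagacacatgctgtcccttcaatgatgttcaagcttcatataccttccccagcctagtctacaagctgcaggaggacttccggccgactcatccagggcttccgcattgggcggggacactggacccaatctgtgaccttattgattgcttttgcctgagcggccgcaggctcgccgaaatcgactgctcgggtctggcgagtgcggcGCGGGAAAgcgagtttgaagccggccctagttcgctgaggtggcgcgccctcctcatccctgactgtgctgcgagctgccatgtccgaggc

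Genes of G2 and mitosis showed the largest shared median fall of the pathway lists apart from the histones, but the CD4 test was close to its threshold. In the additive test 58 of 60 members fell and none rose, with medians of -1.74 (additive), -1.95 in CD8 and -1.54 in CD4 cells. In CD8 cells 59 of 60 fell, in CD4 cells 17, and these 17 were the members that fell in both. Without CD4 week 3 replicate 2 the count in both was 57, and it was 0 without any 1 of CD4 week 1 replicates 2 or 3 or CD4 week 3 replicates 1, 3, 4 or 5. Leaving out any 1 of 8 CD8 libraries (all but week 1 replicate 3 and week 4 replicate 2) gave 10. DESeq2 called 35 of them in both and limma-voom 56. The summed level was 13280, 12710, 6398, 15050 and 15350 CPM in CD8 week 1, 3965, 4065, 3796, 3639 and 3468 CPM in CD8 week 4, 5726, 9480, 8566, 5782 and 4687 CPM in CD4 week 1 and 3228, 7395, 2283, 2127 and 1935 CPM in CD4 week 3 libraries. CD8 sums did not overlap between the stages, and in CD4 cells only week 3 replicate 2 reached into the week 1 range.

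Cenpa, the histone H3 variant that marks the centromere, stood at 198, 201, 107, 242 and 248 CPM at week 1 and 48.3, 51.5, 33.3, 50.3 and 45.5 CPM at week 4 in CD8 cells. In CD4 cells it stood at 122, 199, 125, 81.1 and 47.5 CPM and 39.1, 103, 34.2, 24.5 and 36.1 CPM. The CD8 stages did not overlap, and in CD4 cells only week 3 replicate 2 reached into the week 1 range. The additive log2 fold changes were -1.70 for Cenpa, -1.49 for the chromatin protein gene Hmgb2 and -1.59 for the condensin subunit gene Ncapd2 (adjusted p 0.00014, 0.000218 and 0.000358). All 3 additive calls held without any single library, and the CD4 call of each was lost without any 1 of the same 6 CD4 libraries. Mki67, the common marker of dividing cells, fell in the additive test (-1.73, adjusted p 0.00354) but was not called in CD4 cells (-1.54, adjusted p 0.091). Its CD4 week 3 libraries held 158, 631, 42.4, 21.7 and 44.8 CPM, and without replicate 2 the CD4 value was -2.97 and was called. The CD8 result of Mki67 no longer passed without CD8 week 4 replicate 4 or 5.

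Of 50 mitosis promoters with a window, 37 (74%) held the CHR word TTTGAA and 38 (76%) a CCAAT box on either strand, and 32 (64%) held both. Among all 9568 windows the shares were 12%, 39.2% and 5.08%. The windows of Cenpa (chr5:30666636-30666935, plus strand), Hmgb2 (chr8:57511593-57511892, plus strand) and Ncapd2 (chr6:125191537-125191836, minus strand) are shown because all 3 genes passed in each cell type and carry both words. Capitals mark TTTGAA or its complement TTCAAA and CCAAT or its complement ATTGG. The words do not contain each other. Hmgb2 held 2 CHR words and 4 CCAAT boxes, Ncapd2 1 and 3, and Cenpa 1 and 2. The windows of Ndc80 and Mad2l1, which also fell in both cell types, are not shown. That of Ndc80 held a CHR word and no CCAAT box, and that of Mad2l1 held neither.
Cenpa: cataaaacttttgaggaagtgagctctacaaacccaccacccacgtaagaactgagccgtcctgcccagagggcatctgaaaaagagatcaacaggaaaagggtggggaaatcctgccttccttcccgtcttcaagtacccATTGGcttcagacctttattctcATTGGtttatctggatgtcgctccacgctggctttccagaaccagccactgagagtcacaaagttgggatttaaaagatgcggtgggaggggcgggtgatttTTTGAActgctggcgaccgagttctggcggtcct
Hmgb2: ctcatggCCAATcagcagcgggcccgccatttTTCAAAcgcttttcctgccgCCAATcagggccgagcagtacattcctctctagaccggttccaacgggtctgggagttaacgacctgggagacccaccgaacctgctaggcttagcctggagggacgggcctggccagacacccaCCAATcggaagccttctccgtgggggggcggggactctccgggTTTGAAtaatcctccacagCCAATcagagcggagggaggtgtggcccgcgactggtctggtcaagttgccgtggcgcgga
Ncapd2: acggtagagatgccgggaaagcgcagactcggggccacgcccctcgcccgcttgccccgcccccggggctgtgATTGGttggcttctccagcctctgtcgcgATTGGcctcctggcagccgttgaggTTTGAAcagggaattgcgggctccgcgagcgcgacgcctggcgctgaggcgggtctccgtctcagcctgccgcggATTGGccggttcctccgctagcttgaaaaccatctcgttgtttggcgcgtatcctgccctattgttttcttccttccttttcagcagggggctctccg

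**Figure D3:**
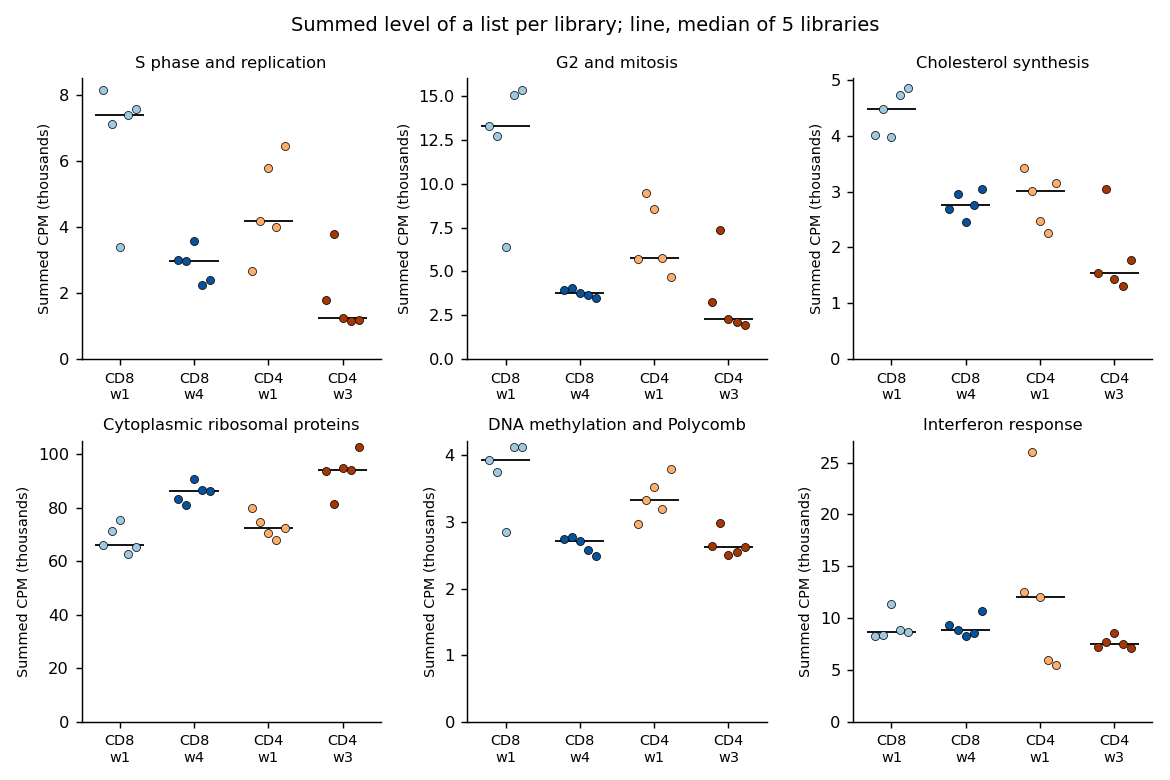
Summed level of 6 gene lists (1000 CPM per unit of the y axis), each point 1 library and each line the median of 5 libraries in CD8 week 1 and 4 and CD4 week 1 and 3. The S phase, G2, cholesterol and DNA methylation sums are lower in most late libraries, with CD8 week 1 replicate 3 and CD4 week 3 replicate 2 apart from their groups in S phase, and the ribosomal protein sums are higher late without overlap.

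DNA repair genes went with replication. Of 36 members, 28 fell and 1 rose in the additive test, against 20.7% and 21.9% of all genes, with an additive median of -1.10. In both cell types 19 fell, against 6.00% of all genes (27 without CD8 week 1 replicate 3 and CD4 week 3 replicate 2). Fewer than 13 fell in both without any 1 of CD4 week 1 replicates 2, 3 or 5, CD4 week 3 replicates 1, 3, 4 or 5 or CD8 week 4 replicate 5 (7 to 12). Blm, the helicase mutated in Bloom syndrome, fell by 1.33 and the mismatch repair gene Msh6 by 0.78 on a log2 scale (adjusted p 5.32e-05 and 6.86e-05). Replication-dependent histone genes had the largest median fall (-2.05), with 21 of 25 tested members lower and 1 higher. In both cell types 14 fell and 1 rose, and the falls in both were 4 to 9 without any 1 of CD4 week 1 replicate 2 or CD4 week 3 replicates 1, 3, 4 or 5. Hist1h2ab, an H2A gene, fell from a very low level. It held 0.176 to 1.01 CPM in CD8 week 1 and 0 to 0.207 CPM in CD8 week 4 libraries, which overlapped. In CD4 cells it held 0.0833 to 0.7055 CPM at week 1 and 0 to 0.0456 CPM at week 3. The mRNAs of these genes usually lack a poly(A) tail, and the libraries were made from polyadenylated RNA, so their levels are a remnant. Hist3h2a was the member that rose (1.08, adjusted p 0.000132), from 0.452 to 1.29 to 1.35 to 2.07 CPM in CD8 and from 1.17 to 2.12 to 2.33 to 3.89 CPM in CD4 libraries.

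**Figure D4:**
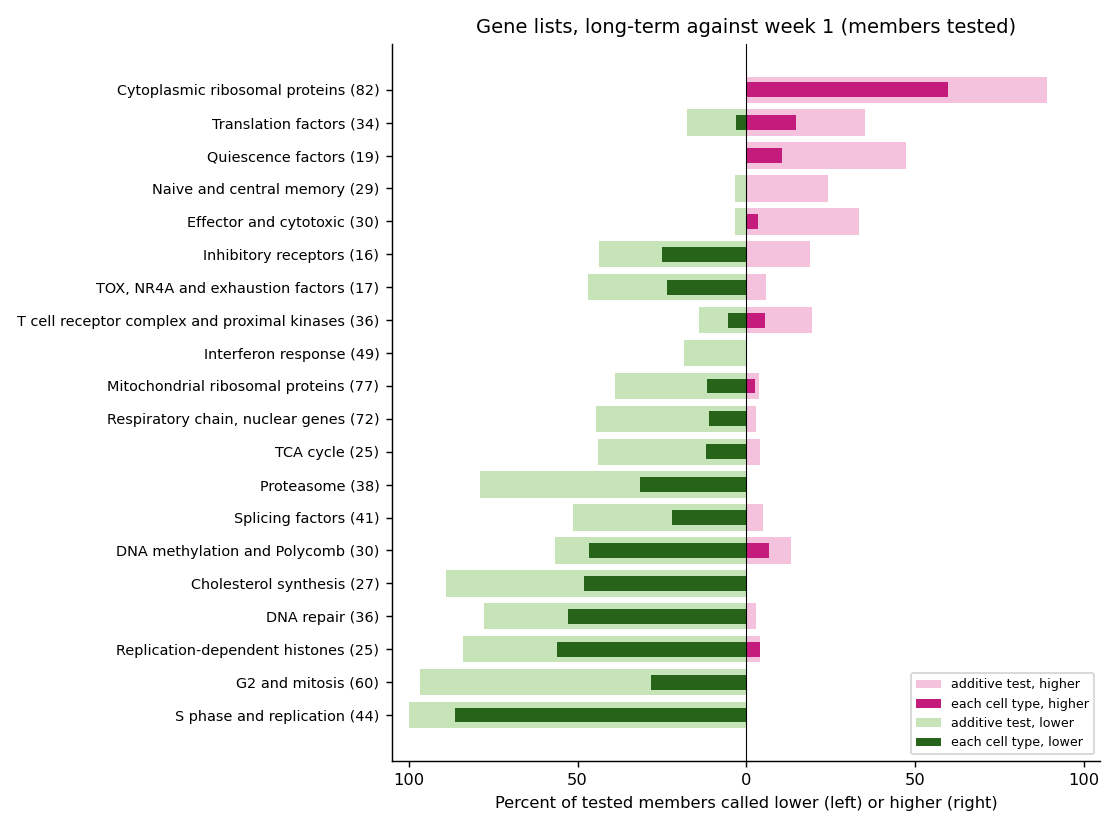
Percent of the tested members of 20 gene lists (number in brackets) called higher (right) or lower (left) in long-term culture, with pale bars for the additive test and dark bars for genes called in each cell type. Ribosomal protein genes extend furthest to the right and S phase genes furthest to the left, at 49 of 82 and 38 of 44 called in each cell type.

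Cytoplasmic ribosomal protein genes rose together by a small amount in both cell types. Of 82 members tested, 73 rose in the additive test (against 21.9% of all genes), 49 rose in each cell type (against 5.03%) and none fell. The median log2 fold change was 0.33 in CD8 and 0.35 in CD4 cells. For 20 members no late library overlapped a week 1 library in either cell type. The count in both was 44 to 55 under the other scalings and tools and 41 to 62 with a library left out. The summed level was 66090, 71320, 75250, 62740 and 65320 CPM in CD8 week 1 and 83200, 81050, 90680, 86750 and 86310 CPM in CD8 week 4 libraries. In CD4 cells it was 79820, 74780, 70420, 67840 and 72560 CPM at week 1 and 93730, 81270, 94900, 94210 and 102900 CPM at week 3. All 10 late libraries exceeded all week 1 libraries of their cell type.

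Rps28, a protein of the small subunit, stood at 251, 250.4, 254, 253 and 286 CPM in CD8 week 1 and 385, 390.4, 379.9, 435 and 408 CPM in CD8 week 4 libraries. The CD4 libraries held 363, 371, 331, 335 and 322 CPM and 479, 416, 526, 530.3 and 534 CPM. The separation was complete, with a 1.49-fold change (log2 0.58, SE 0.05, adjusted p 5.81e-07). Rps21 (0.60) and the large-subunit gene Rpl10 (0.41) followed (adjusted p 1.07e-06 and 4.32e-06). Many ribosomal protein genes have near-identical copies elsewhere, and reads that map to several places were not counted, so the level of a single member is uncertain. Of 34 translation factors, 12 rose and 6 fell, and 5 rose and 1 fell in both cell types. Over all genes the shares were 21.9% and 20.7%, and 5.03% and 6.00% in both, and the falls among the factors lay under these. Eef1b2, an elongation factor subunit (0.41), and Rack1, a scaffold on the small ribosomal subunit (0.32), were among the risers (adjusted p 6.29e-05 and 0.000181). Without CD4 week 1 replicate 3 or CD8 week 1 replicate 4, 3 translation factors rose in both. Of 53 ribosome biogenesis and Myc genes 8 were higher and 1 lower, under the shares of all genes, with a single shared call. That gene was Mxd4, which encodes an antagonist of Myc and rose by 1.05 on the log2 scale (adjusted p 5.57e-05).

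Of 77 mitochondrial ribosomal protein genes 30 fell and 3 rose, against 20.7% and 21.9% of all genes (additive median -0.14). In both cell types 9 fell and 2 rose, against 6.00% and 5.03%, Mrpl24 being one of the risers (0.40, adjusted p 4.82e-05). Without any 1 of CD4 week 1 replicates 3 or 5 or CD4 week 3 replicates 3, 4 or 5, 3 to 5 fell in both. Nuclear genes of the respiratory chain fell in 32 of 72 cases and rose in 2, with a median of -0.16, and 8 fell in both. That count was 13 without CD4 week 3 replicate 2, 1 without CD4 week 3 replicate 3, and 2 to 5 without any 1 of CD4 week 1 replicates 3, 4 or 5, CD4 week 3 replicates 4 or 5, CD8 week 1 replicates 1, 4 or 5 or CD8 week 4 replicates 2 or 4. Ndufa4 stood far outside the list's median. Of 14 mitochondrially encoded genes 7 rose and none fell in the additive test, although DESeq2, limma-voom and scaling by library totals each called 1 lower. In CD8 cells 3 rose and 3 fell, in CD4 cells 4 rose and none fell, and 2 rose in both.

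Cholesterol synthesis genes fell in both cell types. Of 27 tested, 24 fell and none rose in the additive test, against 20.7% and 21.9% of all genes. In each cell type 13 fell, against 6.00%, and the medians were -0.70 in CD8 and -0.83 in CD4 cells. Without CD8 week 1 replicate 3 and CD4 week 3 replicate 2, 21 fell in both. Leaving out CD4 week 3 replicate 2 alone gave 20, and leaving out any 1 of CD4 week 3 replicates 1, 3 or 4 or CD8 week 1 replicates 4 or 5 gave 6 to 8. The summed CPM was 4009, 4477, 3977, 4729 and 4851 in CD8 week 1 and 2684, 2963, 2458, 2754 and 3041 in CD8 week 4 libraries. CD4 sums were 3416, 3018, 2476, 2251 and 3162 CPM at week 1 and 1533, 3047, 1429, 1301 and 1768 CPM at week 3. CD8 sums did not overlap, and in CD4 cells only week 3 replicate 2 lay within the week 1 range. The sterol oxidase gene Msmo1 fell by 0.97 (adjusted p 0.000183) and the mevalonate pathway kinase gene Pmvk by 1.09 (0.000105) on the log2 scale. The sterol response word TCACNCCAC stood in 1 of 20 promoter windows of this list and a CCAAT box in 16 (80%), against 1.01% and 39.2% of all windows.

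Other metabolic lists had fewer shared members. Over all genes 20.7% fell and 21.9% rose in the additive test, and 6.00% fell and 5.03% rose in both cell types. Of 25 TCA cycle genes 11 fell and 1 rose, and 3 fell in both (6 without CD4 week 3 replicate 2 and 5 without CD8 week 1 replicate 3). Idh2, the mitochondrial isocitrate dehydrogenase, fell with no overlap between stages, from 27.96 to 47.9 to 15.6 to 21.5 CPM in CD8 and from 42.4 to 56.7 to 28.9 to 35.8 CPM in CD4 libraries (-0.90, SE 0.10, adjusted p 8.04e-06). Of 29 genes of serine, folate and amino acid supply, which the factor ATF4 controls, 18 fell in CD8 cells but 2 in CD4 cells, and 2 fell and 1 rose in both (5 fell without CD4 week 1 replicate 1 or CD4 week 3 replicate 2). Mthfd2, of mitochondrial folate metabolism, was a shared fall (-1.32 in CD8 and -0.62 in CD4 cells). Stc2, a stanniocalcin, was the shared rise (1.12, adjusted p 0.000101). Proteasome subunits fell by little, with 30 of 38 lower, none higher, a median of -0.26 and 12 lower in both. Psma4 of the core particle fell from 104.9 to 123 to 76.99 to 98.1 CPM in CD8 cells and from 90.4 to 120.2 to 65.5 to 93.9 CPM in CD4 cells (-0.40, adjusted p 0.000201). The count in both was 3 to 5 without any 1 of CD4 week 1 replicate 3 or CD4 week 3 replicates 3, 4 or 5. Of 24 glycolysis genes 2 fell and none rose, and 10 fell without CD8 week 1 replicate 3 and CD4 week 3 replicate 2. Hif1a, the oxygen-regulated transcription factor that activated T cells also induce, fell by 0.82 in log2 units (adjusted p 0.000133). It was the 1 hypoxia gene of 19 called in both, near the 6.00% of all genes called lower in both.

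Inhibitory receptors and the factors that accompany them were lower in part. Of 16 inhibitory receptor genes 7 fell and 3 rose in the additive test, and Cd200, Pdcd1, Ctla4 and Lag3 fell in both cell types. Over all genes 20.7% fell and 21.9% rose, and 6.00% fell in both. The summed level of the list overlapped between the stages. It was 766 to 928 CPM at week 1 and 782 to 1208 CPM at week 4 in CD8 libraries. In CD4 libraries it was 558 to 787 CPM at week 1 and 621 to 804 CPM at week 3. Pdcd1, which encodes PD-1, stood at 19.2, 21.7, 6.04, 11.4 and 11.6 CPM in CD8 week 1 and 1.82, 3.49, 0.259, 0.281 and 0.392 CPM in CD8 week 4 libraries. In CD4 cells it stood at 4.15, 4.89, 2.699, 2.22 and 2.54 CPM and 0.581, 0.264, 0.129, 0.273 and 0.254 CPM. Within each cell type every late library lay below every week 1 library, and the change was 11.1-fold (log2 -3.47, SE 0.43, adjusted p 1.62e-05). Cd200, a ligand of an inhibitory receptor of myeloid cells, fell by 3.67 (adjusted p 1.80e-06). Its CD8 libraries held 6.897, 4.89, 6.80, 3.82 and 3.01 CPM at week 1 and 0.0714, 0.113, 0, 0.322 and 0.261 CPM at week 4, and its CD4 libraries 16.4, 9.22, 9.65, 9.44 and 7.29 CPM and 1.74, 1.05, 0.985, 1.73 and 1.56 CPM. No Cd200 value late reached a week 1 value of its cell type, and both genes were low in all 10 late libraries. The CD8 call of Ctla4 (additive -1.20) was lost without any 1 of CD8 week 1 replicates 1, 2, 4 or 5 or CD8 week 4 replicates 3, 4 or 5. For Lag3 (additive -3.51) the same happened in CD8 cells without week 1 replicate 1 or 2 or week 4 replicate 3, 4 or 5, and in CD4 cells without week 1 replicate 2 or week 3 replicate 3, 4 or 5.

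Of 17 TOX, NR4A and other exhaustion factors 8 fell and 1 rose, and Irf8, Tox, Nr4a1 and Nr4a3 fell in both. The shares over all genes were 20.7% and 21.9%, and 6.00% for falls in both. The CD4 call of Nr4a1 was lost without CD4 week 3 replicate 3, 4 or 5, and the CD8 call of Nr4a3 without replicate 3 of week 1 or replicate 3, 4 or 5 of week 4. Tox encodes the nuclear factor that sustains exhausted T cells. It held 7.57, 5.36, 12.2, 10.4 and 9.49 CPM in CD8 week 1 and 0.679, 0.338, 0.518, 0.322 and 3.57 CPM in CD8 week 4 libraries. The CD4 libraries held 61.7, 26.2, 33.2, 37.5 and 23.7 CPM and 9.43, 5.28, 7.496, 14.3 and 6.04 CPM. Within each cell type the stages did not overlap, with late CD4 libraries at about the level of early CD8 libraries (log2 -2.52, SE 0.36, adjusted p 5.73e-05). Without CD8 week 4 replicate 5, which held most, the CD8 value moved from -3.03 to -4.24. Dusp4, a MAP kinase phosphatase induced by activation, fell by 3.04 (adjusted p 6.20e-05), in the direction opposite to Dusp3. It went from 8.24 to 23.2 to 0.984 to 3.27 CPM in CD8 and from 5.32 to 13.8 to 0.0911 to 3.43 CPM in CD4 cells.

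Among 36 genes of the T cell receptor complex and its kinases 7 rose and 5 fell, close to or below the 21.9% and 20.7% of all genes. In both cell types 2 fell and 2 rose, near the 6.00% and 5.03% of all genes. The shared rises were Txk and Pag1, and 0 to 2 genes rose in both with a library left out. The shared falls were the scavenger receptors Cd5 and Cd6, which dampen receptor signals. Cd5 held 134, 125, 109.7, 123 and 126 CPM in CD8 week 1 and 71.97, 75.9, 55.1, 63.8 and 72.5 CPM in CD8 week 4 libraries. The CD4 libraries had 452, 374, 315, 284 and 376 CPM and 213, 213, 181, 170.1 and 248 CPM. The stages were apart in both, and the log2 fold changes were nearly the same size (-0.86 and -0.81, additive adjusted p 2.13e-06). Cd6 lies close to Cd5 on chromosome 19 (chr19:10718143-10738974 and chr19:10789341-10830058) and fell by 0.67 (adjusted p 9.79e-05). Ptpn6, the phosphatase SHP-1 that acts on the same signals, fell by 0.68, and the cytokine gene Tgfb1 by 0.47 in log2 units (adjusted p 6.38e-05 and 4.48e-05). Jak1, the kinase that the IL-7 and IL-15 receptors share, rose from 709 to 847 to 1016 to 1112 CPM in CD8 and from 609.6 to 753 to 788 to 1015 CPM in CD4 cells (0.47, SE 0.05, adjusted p 1.03e-05). Hcst, the adaptor DAP10 of the receptor NKG2D, rose by 0.87 (adjusted p 5.53e-06), and no late library overlapped a week 1 library in either gene.

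Single receptor genes of other lists were shared too. Fas, the death receptor, fell by 0.89 (adjusted p 3.31e-05) and Itga5, the alpha 5 chain of the fibronectin receptor, by 1.19 on the log2 scale (adjusted p 2.58e-05). Both were separated by stage in CD8 and in CD4 cells. Tnfrsf26, a TNF receptor relative, rose by 0.90 (adjusted p 3.21e-05).

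Of 30 genes of DNA methylation, Polycomb and related chromatin regulation, 17 fell and 4 rose in the additive test (20.7% and 21.9% over all genes), and 14 fell and 2 rose in both cell types (6.00% and 5.03%), with medians of -0.27 in CD8 and -0.28 in CD4 cells. Without any 1 of CD4 week 1 replicate 3 or CD4 week 3 replicates 3, 4 or 5, 6 or 7 fell in both. Dnmt3a, the de novo DNA methyltransferase, held 102, 91.8, 99.2, 106 and 106 CPM in CD8 week 1 and 73.2, 77.2, 60.3, 72.1 and 73.8 CPM in CD8 week 4 libraries. In CD4 cells it held 109.7, 122, 101, 104.6 and 113 CPM and 63.97, 95.7, 63.7, 60.6 and 71.2 CPM. The stages did not overlap, although week 3 replicate 2 came close to the week 1 libraries (-0.57, SE 0.07, adjusted p 2.43e-05). Tet1, which oxidises methylcytosine, fell by 1.28 and the deacetylase gene Hdac1 by 0.41 (adjusted p 8.62e-05 and 3.87e-05). Of 41 splicing factors 21 fell and 2 rose, and 9 fell in both, a count that was 3 or 4 without any 1 of CD4 week 1 replicate 3 or CD4 week 3 replicates 3, 4 or 5.

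Of 30 p53 targets and cell cycle inhibitors 12 rose and 6 fell, against 21.9% and 20.7% of all genes. In both cell types 2 rose and 1 fell, near or below the 5.03% and 6.00% of all genes (6 fell without CD4 week 3 replicate 2). Cdkn2b encodes p15, an inhibitor of CDK4 and CDK6, and had the largest change. It stood at 0.519, 1.01, 1.47, 2.16 and 1.21 CPM in CD8 week 1 and 5.32, 5.91, 11.6, 7.96 and 9.53 CPM in CD8 week 4 libraries. In CD4 cells it stood at 0.415, 0.282, 0.4499, 0.363 and 0.292 CPM and 3.04, 7.04, 3.38, 3.01 and 1.18 CPM. No late library fell to the week 1 range of its cell type, and the additive change was 7.59-fold (log2 2.92, SE 0.29, adjusted p 2.02e-06). Of 19 quiescence factors 9 rose and none fell in the additive test, and Txnip and Tob1 rose in both, 5 genes without CD4 week 3 replicate 2. Txnip, which binds thioredoxin and limits glucose uptake, rose by 0.63, and Tob1, an antiproliferative protein, by 0.72 in log2 units (adjusted p 3.63e-05 and 0.000133). Ulk2, a kinase that starts autophagy, rose by 0.42 (adjusted p 3.28e-05).

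Of 29 genes of naive and central memory T cells 7 rose and 1 fell in the additive test, the rises near the 21.9% of all genes. None was called in both cell types (5.03% and 6.00% of all genes), and 1 rose in both without CD8 week 1 replicate 3 and CD4 week 3 replicate 2. Tcf7, which encodes TCF1, was called in the additive test (0.42, adjusted p 0.04) and in neither cell type, and its call was lost without any 1 of 13 libraries (every CD4 library but week 1 replicate 1 and week 3 replicate 2, CD8 week 1 replicates 1, 2 and 5 and CD8 week 4 replicates 3 and 4). Lef1 (0.40, adjusted p 0.0161) and Bcl2 (0.29, adjusted p 0.00409) were called in CD8 cells and not in CD4 cells (adjusted p 0.45 and 0.486). Cd44, whose surface protein was used in the sort, was not called in the additive test (-0.24, adjusted p 0.337). It was called without CD4 week 3 replicate 2 (-0.49, adjusted p 0.00755), and the CD4 week 3 libraries held 49.1, 159.8, 48.3, 37.2 and 68.9 CPM, with replicate 2 far above the rest. Ccr7, the lymph node homing receptor, was not called (0.15, adjusted p 0.563). Il7r differed between the cell types, with -2.59 in CD8 and 0.90 in CD4 cells (interaction adjusted p 0.0135).

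Some shared rises started from almost no reads, and several had a shared neighbour on the chromosome. These genes were chosen after their values were seen. Trpc6, a calcium-permeable channel, had 1 count in all CD8 week 1 libraries together and 192 at week 4, and 1 and 158 counts in CD4 cells at week 1 and week 3. Pgr, the progesterone receptor, which lies next to it within 424 kb (chr9:8544142-8680741 and chr9:8899833-8968611), had 6 and 493 counts in CD8 and 2 and 151 in CD4 cells. Late levels were 2.68, 1.69, 5.02, 4.75 and 7.53 CPM in CD8 and 1.29, 0.308, 2.36, 2.19 and 0.507 CPM in CD4 libraries for Pgr. Trpc6 held 1.29, 0.394, 1.81, 1.73 and 3.09 CPM in CD8 and 1.03, 0.132, 2.14, 2.55 and 1.099 CPM in CD4 libraries late. All 20 libraries of both genes were separated by stage, at levels that stayed under 8 CPM. Fat3, a giant cadherin, had 1 and 341 counts in CD8 and 11 and 1219 in CD4 cells. Pclo, a scaffold protein of synapses, had 0 and 29 counts in CD8 and 6 and 906 counts in CD4 cells. These are summed over 5 libraries, and with so few early counts the fold is poorly fixed, so it is not given.

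Cdkn2b lies in a span of 388 kb with Dmrta1 (chr4:89679436-89694772), a transcription factor gene with 4 and 217 counts in CD8 and 0 and 20 in CD4 cells, whose CD4 call was lost without CD4 week 3 replicate 3 or 4. On chromosome 13, Tfap2a, Gcnt2 and Gcm2 rose within 394 kb (chr13:40715675-41109988). Gcnt2, an enzyme that branches sugar chains, held 8.04, 8.22, 8.97, 4.703 and 5.65 CPM in CD8 week 1 and 46.3, 36.2, 57.5, 67.2 and 74.7 CPM in CD8 week 4 libraries. Its CD4 libraries went from 0.0415, 0.329, 0.2499, 0.161 and 0.125 CPM to 4.69, 29.6, 4.71, 1.64 and 8.79 CPM. The transcription factor gene Tfap2a stayed low, with at most 1.24 CPM in any library (1.53, adjusted p 0.000148). Between Gcnt2 and Gcm2 lie Pak1ip1 (0.04, adjusted p 0.671) and Tmem14c (-0.22, 0.0799), which were not called, so the rise was not shared by all tested genes of the interval. Cd86, the ligand of CD28 and CTLA-4, and its neighbour Ildr1 fell together on chromosome 16 (chr16:36603869-36666081 and chr16:36693978-36726804, log2 -3.92 and -2.42, adjusted p 0.000133 and 0.000409). Cd86 held 1.29, 10.4, 0.8998, 0.323 and 0.292 CPM in CD4 week 1 libraries, and without the highest of them, replicate 2, its CD4 value moved from -4.17 to -2.27. In all, 28 of 13263 pairs of consecutive tested genes were both called in both cell types in one direction with at least 2-fold in each, 9 upward and 19 downward, many of the latter histone genes. Of single genes, 442 (3.33%) met that mark.

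**Figure D5:**
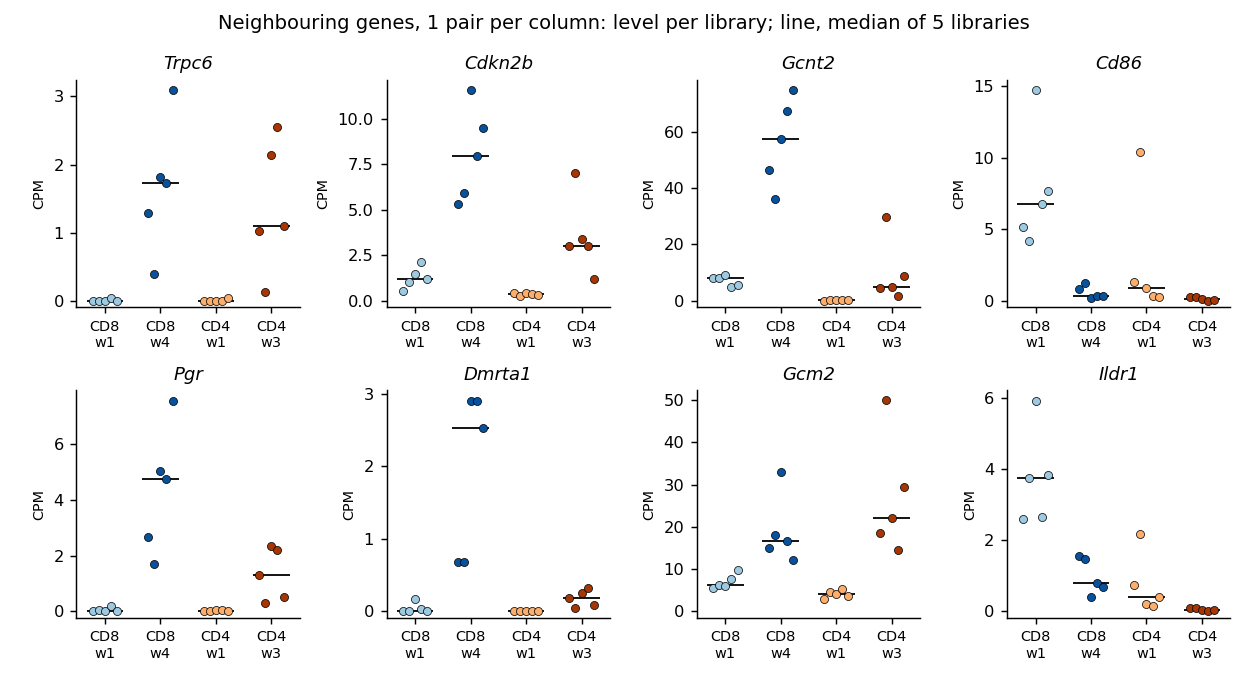
Levels in CPM of 4 pairs of genes that lie near each other, 1 pair per column, each point 1 library and each line the median of 5 libraries in CD8 week 1 and 4 and CD4 week 1 and 3. Trpc6 with Pgr, Cdkn2b with Dmrta1 and Gcnt2 with Gcm2 are higher in all late libraries than in any week 1 library of the same cell type, and Cd86 with Ildr1 lower.

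The additive description left few tested differences between the cell types. The interaction was called for 87 genes (0.655%), of which 4 were shared rises and 3 shared falls. With 357 called without CD8 week 1 replicate 3 and CD4 week 3 replicate 2, this number too depended on those libraries. Of the 19 genes called in opposite directions 6 rose in CD8 and fell in CD4 cells and 13 did the reverse. Gpc1, a cell surface proteoglycan, the transcription factor gene Ikzf3 and Lsp1, a leukocyte cytoskeletal protein, were of the first kind. Il1rl1, which encodes the IL-33 receptor, Mctp1 and Stc1 were of the second. Their CD8 falls were near background, with 50 and 2, 25 and 5 and 25 and 3 counts summed over the week 1 and week 4 libraries. No CD8 library held more than 0.834 CPM of any of them.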

How the data were processed

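Poly(A) RNA from 20 sorted T cell populations, 5 in each of 4 groups, was sequenced with a stranded kit. The deposited table holds counts, which the authors made with featureCounts 1.6.3 on GENCODE M12 genes with the reverse-stranded setting (2), per the file headers. No option for reads that map to several places is set in the command there, so these were not counted. STAR and mm10 are named in the submitters' processing notes.

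Of 49671 genes in the table, 13290 passed filterByExpr over the 4 groups. Counts were scaled by TMM and tested with edgeR 4.0.16 (R 4.3.3, limma 3.58.1) by quasi-likelihood, with stage and cell type as additive terms, and in a fit of 4 group means for CD8, CD4 and their difference. P-values were adjusted by Benjamini-Hochberg over all 13290 genes, with 0.05 as the threshold. Fold changes are long-term over week 1. CPM values use TMM-scaled library sizes, except for cell markers. A gene is called shared when both cell types pass in one direction. Single libraries held 13.3 to 28.3 M counts. Over genes with at least 20 counts in a pair, the 40 pairs of libraries within groups all differed beyond sampling noise (chi-square per degree of freedom 6.31 to 154). For genes with few counts, counting also limits the precision.

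Members and gene lists (49 pathway and 13 marker lists) were chosen with earlier results of these data known. Genes named are the 14 largest shared rises and 14 largest falls that have no overlap between the stages and at least 10 CPM in the higher stage, the 6 most alike in size, up to 5 shared members of each list with the smallest adjusted p, 3 opposite genes each way, and a fixed set of memory and marker genes. Beyond the rule, 14 genes were chosen after their values were seen. The model was tested on simulated data of 13133 genes, with the same change put into both cell types for 67, 67 and 66 of them (1.5-fold, 2-fold and 4-fold): 74.6%, 89.6% and 100% of these were recovered by the additive test and 31.3%, 73.1% and 93.9% in both cell types, and 8 and 0 unchanged genes were called. In the simulation each gene varied on its own. No library was shifted as a whole, as CD8 week 1 replicate 3 and CD4 week 3 replicate 2 were, so these rates may not hold for the real data. The 33 alternatives covered scaling, DESeq2 1.42.0, limma-voom, filters, the covariate, a minimum fold and each of the 20 libraries left out. Promoters are from RefSeq. Some named genes are not reported here.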

Additional observations from a re-analysis of the deposited data

Results flagged for a closer look

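Within each group of 5, a library was set aside for a closer look when its distance from its nearest neighbour was large against the whole range of the group, a rule that chance alone meets in about 1 in 20 groups. It was met 15 times in 88 sets of values (17 genes and 5 summed lists, in 4 groups). CD4 week 3 replicate 2 accounted for 6: Adgrg3 (44.5 CPM), Irf8 (10.5 CPM), Mki67 (630.7 CPM) and the sums of S phase (3783 CPM), G2 and mitosis (7395 CPM) and cholesterol synthesis (3047 CPM). All but Adgrg3 lay toward the week 1 libraries. CD8 week 1 replicate 3 accounted for 6: Adgrg3 (10.9 CPM), Irf8 (206 CPM), Mki67 (544 CPM), Jak1 (847 CPM), the S phase sum (3383 CPM) and the interferon response sum (11320 CPM). Of these, Irf8 lay away from the late libraries, while Adgrg3, Mki67, Jak1 and S phase lay toward them. The other 3 were Cd200 in CD4 week 1 replicate 1 (16.4 CPM), Tox in CD8 week 4 replicate 5 (3.57 CPM) and Rps28 in CD8 week 1 replicate 5 (286 CPM).

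A second set of genes had different stage effects in the cell types, either by the interaction test or by calls in opposite directions. The CD8 change minus the CD4 change on the log2 scale was -5.42 for Cd4, -10.44 for Il1rl1, -5.05 for Mctp1, -4.96 for Stc1, -3.49 for Il7r, -2.53 for Spry1 and -1.32 for Padi2. It was 1.87 for Gpc1, 1.02 for Ikzf3, 0.76 for Tnfsf8 and 0.51 for Lsp1. Cd4, Il1rl1, Mctp1 and Stc1 are near background in CD8 libraries. Padi2, Spry1 and Tnfsf8 were nevertheless called in one direction in both cell types.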

How the results depend on the processing

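The additive counts, 2906 higher and 2751 lower, ranged from 2602 to 3228 and from 2522 to 3160 with 1 library left out, and a test against a 1.5-fold change gave 259 and 516. The shared counts, 668 higher and 797 lower, ranged from 398 to 1047 and from 373 to 1364 with 1 library left out. They were 1342 and 1547 without CD8 week 1 replicate 3 and CD4 week 3 replicate 2, 359 and 377 with each cell type fitted alone (fewer libraries to estimate the spread), 397 and 456 with the larger of the 2 p-values adjusted, 143 and 299 with at least 2-fold in each cell type and 27 and 20 with the 1.5-fold test. The count of genes whose change differed between the cell types, 87, ranged from 28 (without CD8 week 1 replicate 4) to 317 (without CD8 week 1 replicate 3), and was 357 without CD8 week 1 replicate 3 and CD4 week 3 replicate 2, 168 without CD8 week 4 replicates 1 and 2, 334 by DESeq2, 55 with no filter and 13 with the 1.5-fold test. For settings where no cause is given, the cause was not tested.

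No named gene called in the main fit or in an alternative reversed its additive direction there. Sign changes of genes called in neither, or within a single cell type, were not counted. Of 154 named genes called in both cell types, 0 lost the additive call and 56 the call in both without some single library, and 67 lost the additive call under some other alternative, among which the 1.5-fold test is the strictest. Other scalings kept 90.6% to 97.8% of the 1465 shared calls and gave additive medians of all genes from -0.00883 (library totals) to 0.0445 (upper-quartile factors), against 0.0216. No paired analysis was possible because each title holds a number of its own and no label ties a week 1 library to a late one. Early and late libraries alternate in the order of these numbers, and pairs were not inferred from that order. The late stage is week 4 in CD8 and week 3 in CD4 cells, and mice and activation time per library are not given in the sources used here.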

Other observations

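Of 49 interferon response genes tested, 9 fell and none rose in the additive test, against 20.7% and 21.9% of all genes. The falls numbered 16 by DESeq2, 2 by limma-voom and 3 without CD8 week 1 replicate 3 and CD4 week 3 replicate 2. None was called in both cell types under these settings, with medians of -0.14 in CD8 and -1.15 in CD4 cells. In CD4 week 1 libraries the summed level was highest in replicate 2, at 26050 CPM, against 5478 to 12480 CPM in the other libraries of the group. None of the 8 receptor chains for IL-7, IL-15 and IL-2, the cytokines of the culture, was called in both cell types. Over all genes 5.03% rose and 6.00% fell in both, so few calls are expected among 8 genes. With scaling by library totals, or without the same 2 libraries, 1 chain fell in both. In the additive test 2 fell and none rose. In CD8 cells 4 rose and 2 fell, and in CD4 cells none was called.

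Some further lists had few shared members, near the 5.03% of all genes higher and 6.00% lower in both cell types. In the additive test 21.9% of all genes rose and 20.7% fell. Of 14 NK-type receptor genes 6 rose in the additive test and only the adaptor Hcst in both cell types. Of 42 autophagy and lysosome genes 13 rose and 3 fell, and Ulk2 and the protease gene Ctsd rose in both, 6 genes without CD4 week 3 replicate 2. Of 20 tRNA synthetase genes 11 fell and 1, Aars, fell in both.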
